A study of Mus musculus with 6 samples.

Results

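The sodium pump genes described here are 3 beta subunits (*Atp1b1*, *Atp1b2* and *Atp1b3*) and 4 FXYD regulators (*Fxyd1*, *Fxyd2*, *Fxyd3* and *Fxyd6*), chosen by name through the Ensembl gene ID of each row, which makes 7 of the 18437 mRNAs listed in any library. Ribo-seq, the sequencing of the mRNA fragments that translating ribosomes protect, was performed on 6 tissues of wild-type C57BL/6J mice aged 4 weeks that received no treatment, with 1 library each for heart, lung, brain, kidney, small intestine and colon by the labels. Each value is a ribosome density in RPKM, the reads on a coding sequence (CDS) divided by its length in kilobases and by the reads on all CDSs of the library, taken per 1000000. The labels do not state whether 1 mouse or several gave each library. Macrophage samples were not used here.

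The sodium pump (Na,K-ATPase) uses ATP to move sodium out of the cell and potassium into it. It consists of a catalytic alpha subunit, a glycosylated beta subunit that folds with it and brings it to the plasma membrane, and in many cells a small FXYD protein that tunes its affinity for ions. Pump activity drives sodium reabsorption in kidney tubules and absorption in the gut, clears lung fluid, and restores the ion gradients of neurons and heart muscle.

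The 4 FXYD mRNAs share a sequence feature that gives the family its name, 4 codons for phenylalanine, any residue, tyrosine and aspartate. They are printed below from the GRCm39 transcript sequences, 5′ to 3′, to show how far the regulators differ where they are most alike. The motif codons are in capitals, and the bases after them encode most of the membrane-spanning segment.
Fxyd1: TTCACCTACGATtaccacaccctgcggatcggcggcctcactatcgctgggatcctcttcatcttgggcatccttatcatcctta
Fxyd2: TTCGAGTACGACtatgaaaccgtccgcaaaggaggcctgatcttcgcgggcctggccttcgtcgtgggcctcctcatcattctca
Fxyd3: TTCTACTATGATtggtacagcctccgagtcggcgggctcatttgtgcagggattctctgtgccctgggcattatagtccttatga
Fxyd6: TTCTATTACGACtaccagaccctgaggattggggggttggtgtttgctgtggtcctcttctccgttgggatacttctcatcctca
In each of the 4 members an exon junction lies after base 10 of the motif, and the next exon is 75 nt long. The same split was found in all 7 FXYD mRNAs of the tables, *Fxyd4*, *Fxyd5* and *Fxyd7* included, and the 75 nt exon in 6 of them, the exception being *Fxyd5* with 140 nt. Over the 85 aligned bases, *Fxyd1* and *Fxyd6* were identical at 59 positions (69.4%), the most of any pair, and *Fxyd2* and *Fxyd3* at 47 (55.3%), the fewest. The motif begins at codon 29 of *Fxyd1*, codon 17 of *Fxyd2*, codon 30 of *Fxyd3* and codon 29 of *Fxyd6*.

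The printed *Fxyd1* bases lie on the minus strand at chr7:30753318-30753327 in exon 2 and chr7:30752825-30752899 in exon 3. Those of *Fxyd3*, also on the minus strand, lie at chr7:30771500-30771509 in exon 3 and chr7:30770717-30770791 in exon 4. The *Fxyd2* bases lie on the plus strand at chr9:45319433-45319442 in exon 2 and chr9:45319598-45319672 in exon 3. Those of *Fxyd6* lie on the plus strand at chr9:45301961-45301970 in exon 2 and chr9:45302075-45302149 in exon 3. All of these bases are coding, and the exon numbers count coding exons alone.

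The genes stand in groups. *Fxyd1* (chr7:30751092-30756677) and *Fxyd3* (chr7:30767597-30776129) are separated by 10919 nt, and *Fxyd5* and *Fxyd7* adjoin them on the same chromosome, with 29 nt between *Fxyd5* and *Fxyd7* and 130 nt between *Fxyd7* and *Fxyd1*. *Fxyd6* (chr9:45281302-45307457) and *Fxyd2* (chr9:45310967-45322004) are neighbours as well, with 3509 nt between them. The beta subunits lie apart, at chr1:164264678-164285957 (*Atp1b1*), chr11:69487651-69496851 (*Atp1b2*) and chr9:96214674-96246814 (*Atp1b3*), all on the minus strand.

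The coding sequences fall into long and short ones. The beta subunits have CDSs of 912 nt (*Atp1b1*), 870 nt (*Atp1b2*) and 834 nt (*Atp1b3*), and the FXYD members of 276 nt (*Fxyd1*), 192 nt (*Fxyd2*), 264 nt (*Fxyd3*) and 282 nt (*Fxyd6*), against a median of 1320 nt over all mRNAs. Only 390 of 18437 mRNAs have a CDS of up to 300 nt, and the 4 FXYD members are among them. The annotation used here (GENCODE M39) also holds longer CDSs of *Fxyd1* (321 nt), *Fxyd3* (306 nt), *Fxyd6* (318 nt) and *Atp1b2* (897 nt). Lengths, RPKM and motif positions given here are those of the transcripts listed in the libraries. The percent of synonymous codons ending in G or C was 72.0% in *Fxyd6*, 71.0% in *Fxyd2*, 67.3% in *Atp1b1*, 65.6% in *Fxyd1* and 65.5% in *Atp1b2*, above the median of 58.9% over 18154 mRNAs. It was 49.4% in *Fxyd3* and 45.0% in *Atp1b3*, below that median. No pair of members shared a run of 25 bases, the longest shared run being 19 nt between *Atp1b1* and *Atp1b2*, and multi-mapped reads had been left out by the authors. The CDS of *Fxyd3* overlaps the *Lgi4* gene on the opposite strand, and 7.08% of its stretches of 25 bases also lie in the *Lgi4* mRNA. Whether those bases are coding in *Lgi4* was not examined.

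The tissue labels were checked with 19 lists of 3 cell type markers. Neuronal markers summed to 3338 RPKM in the small-intestine-labelled library and 21.8 RPKM in the brain-labelled one, where *Gfap* and *Sox10* had no reads. Enterocyte markers summed to 28719 RPKM in the brain-labelled library and 353 RPKM in the small-intestine-labelled one. Markers of the thick ascending limb, a segment of the kidney tubule, summed to 17168 RPKM in the colon-labelled library and 11.8 RPKM in the kidney-labelled one. Colonocyte markers summed to 924 RPKM in the kidney-labelled library and 0.577 RPKM in the colon-labelled one, where *Aqp8* had no reads. The markers thus went against the labels brain, colon, kidney and small intestine, and fitted heart (28055 RPKM of cardiomyocyte markers) and lung (40412 RPKM of alveolar type 2 markers). Tissue names therefore stand for labels from here on, and no direction is given between the tissues themselves.

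**Figure D1:**
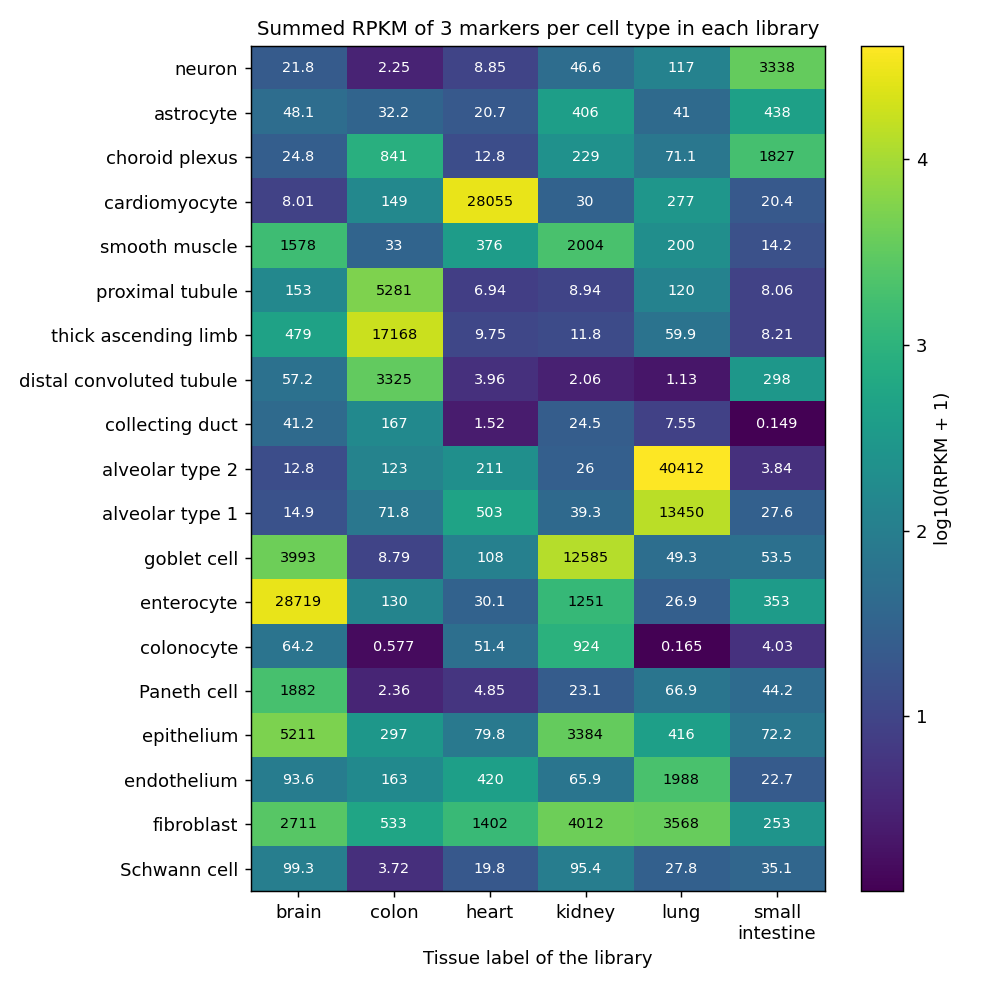
Summed RPKM of 3 markers for each of 19 cell types (rows) in the 6 libraries (columns, by tissue label), with the colour giving log10(RPKM + 1) and the number in each cell the sum. Neuronal markers are highest in the small-intestine-labelled library, kidney tubule markers in the colon-labelled one, and enterocyte markers in the brain-labelled one.

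Between 4504853 (labelled colon) and 10635031 (labelled brain) reads per library lay on CDSs, and between 11520 and 15028 mRNAs had reads. With 1 library per label there is no replicate error, no test between tissues was made, and all intervals below are 95% intervals of counting error alone. The reads carry no molecular identifiers, so duplicates from PCR are not covered by them. *Kri1*, which is no pump gene, took between 0.400% (labelled lung) and 22.1% (labelled kidney) of the reads and so lowered the RPKM of all other mRNAs unequally. Fewer cells of a type and less translation per cell cannot be told apart in whole tissue, nor can the amount of an mRNA and the ribosomes on each copy, since no RNA-seq of the tissues was analysed here.

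*Atp1b1* had the most reads of the 7 members in each library. The 7 members together took 0.792% of all reads in the small-intestine-labelled library, 0.480% in the colon-labelled one, 0.381% in the brain-labelled one, 0.320% in the kidney-labelled one, 0.124% in the lung-labelled one and 0.107% in the heart-labelled one. The beta subunits differed in range, *Atp1b2* being concentrated in 1 library, and the 4 FXYD members were each highest in a different library. Of the 7 members, 3 were highest in 1 library by at least 2-fold over the next, against 46.1% of the 15238 mRNAs with an RPKM of at least 1 in some library, a share close to this background.

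Those 3 were *Atp1b2* in the small-intestine-labelled library (where 14.9% of all tested mRNAs were highest by that fold), *Fxyd2* in the colon-labelled one (5.89%) and *Fxyd3* in the kidney-labelled one (3.41%). No member was highest by at least 2-fold in the libraries labelled brain (5.55% of tested mRNAs), heart (5.57%) or lung (10.8%). With libraries under 3 reads set at the RPKM of 3 reads, 5 of the 7 members were at least 10-fold higher in their highest library than in 1 or more of the others, against 63.8% of tested mRNAs, and *Atp1b1* and *Atp1b3* were the exceptions. On the same scale the median ratio of highest to lowest over all tested mRNAs was 18.0. By range over tissues, the members as a group thus lay close to other mRNAs, and the differences lie between the members.

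**Figure D2:**
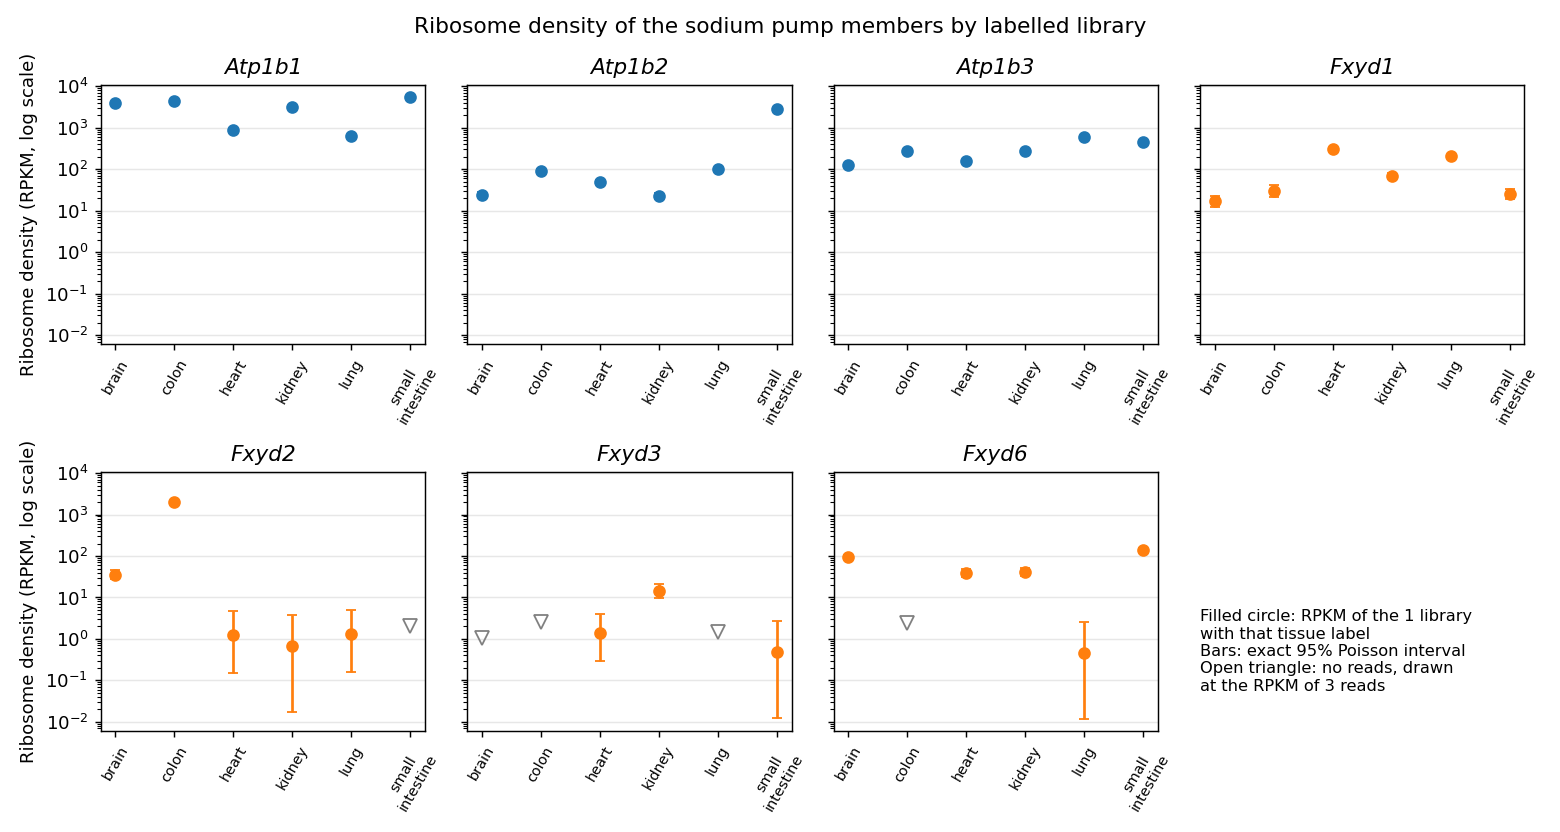
Ribosome density (RPKM, log scale) of each of the 7 members in the 6 libraries, by tissue label. Filled circles are the 1 library of each label with exact 95% Poisson intervals, and open triangles mark libraries with no reads, drawn at the RPKM that 3 reads would give. *Atp1b1* stays between 649 and 5572 RPKM, *Atp1b2* reaches 2774 RPKM in 1 library, and *Fxyd2* 2008 RPKM in another.

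*Atp1b1* encodes the beta subunit found in most tissues and the usual partner of the catalytic subunit in epithelia. It had 5572 RPKM in the small-intestine-labelled library, 4490 RPKM in the colon-labelled one, 4003 RPKM in the brain-labelled one, 3199 RPKM in the kidney-labelled one, 875 RPKM in the heart-labelled one and 649 RPKM in the lung-labelled one. The libraries labelled heart and lung stood apart from the other 4, with a step of 3.66-fold (interval 3.56 to 3.76) between those labelled kidney and heart. *Atp1b1* was among the 20 most densely translated mRNAs of those 4 libraries, at rank 10 in the small-intestine-labelled one, 17 in the kidney-labelled one, 18 in the brain-labelled one and 19 in the colon-labelled one. It was at rank 148 in the heart-labelled library and 177 in the lung-labelled one. The highest value was 8.59-fold (8.33 to 8.86) above the lowest, a smaller range than the median of all tested mRNAs. Each neighbouring pair in this order differed beyond counting error, the closest being the libraries labelled colon and brain at 1.12-fold (1.10 to 1.14). Without the reads on *Kri1* in the total, the kidney-labelled library ranked above the brain-labelled one.

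*Atp1b2* encodes the beta subunit first known as the adhesion molecule on glia. It had 2774 RPKM in the small-intestine-labelled library, 99.6 RPKM in the lung-labelled one, 93.4 RPKM in the colon-labelled one, 50.4 RPKM in the heart-labelled one, 24.4 RPKM in the brain-labelled one and 22.9 RPKM in the kidney-labelled one. The first of these libraries stood far above the rest, 27.8-fold (25.8 to 30.1) over the lung-labelled one and 121-fold (103 to 143) over the kidney-labelled one. At rank 26 of 15028 it was among the most densely translated mRNAs there. The libraries labelled lung and colon did not differ beyond counting error (1.07-fold, 0.938 to 1.22), nor did those labelled brain and kidney (1.07-fold, 0.865 to 1.32). In the small-intestine-labelled library, astrocyte markers summed to 438 RPKM and neuronal markers to 3338 RPKM. The other libraries held between 20.7 and 406 RPKM and between 2.25 and 117 RPKM of these lists. Astrocyte markers came closest in the kidney-labelled library, whose 406 RPKM were almost all *Aqp4* (403 RPKM), and *Gfap* had no reads outside the small-intestine-labelled library. The part of these cells in the density of *Atp1b2* was not tested.

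*Atp1b3*, the beta subunit also known as the surface antigen CD298, had the narrowest range of the 7 members. It had 602 RPKM in the lung-labelled library, 456 RPKM in the small-intestine-labelled one, 279 RPKM in the colon-labelled one, 274 RPKM in the kidney-labelled one, 162 RPKM in the heart-labelled one and 125 RPKM in the brain-labelled one. The highest library was 4.82-fold (4.50 to 5.15) above the lowest, and the libraries labelled colon and kidney did not differ beyond counting error (1.02-fold, 0.940 to 1.10). Which library was highest depended on the scaling, since with median-of-ratios size factors the small-intestine-labelled library had 535 RPKM and the lung-labelled one 444 RPKM. *Atp1b3* was thus neither lost nor concentrated in any library.

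The share of each beta subunit in their summed density does not depend on the library total. The summed density of the 3 beta subunits was 8802 RPKM in the small-intestine-labelled library, 4862 RPKM in the colon-labelled one, 4152 RPKM in the brain-labelled one, 3496 RPKM in the kidney-labelled one, 1350 RPKM in the lung-labelled one and 1088 RPKM in the heart-labelled one. *Atp1b1* carried 96.4% (96.2 to 96.6) of it in the brain-labelled library, 92.3% (92.0 to 92.7) in the colon-labelled one, 91.5% (91.1 to 91.9) in the kidney-labelled one and 80.4% (79.5 to 81.3) in the heart-labelled one. In these 4 libraries *Atp1b3* was the next beta subunit, with 3.01%, 5.73%, 7.84% and 14.9% in the same order.

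The remaining libraries departed from this in different ways. In the lung-labelled library, *Atp1b1* carried 48.1% (47.0 to 49.1) and *Atp1b3* 44.6% (43.5 to 45.6), a ratio of 1.08 (1.03 to 1.13). In the small-intestine-labelled library, *Atp1b1* carried 63.3% (62.9 to 63.7) and *Atp1b2* 31.5% (31.1 to 31.9), a ratio of 2.01 (1.97 to 2.04), while *Atp1b3* carried 5.18%. Elsewhere *Atp1b1* exceeded *Atp1b2* by between 6.51-fold (labelled lung) and 164-fold (labelled brain). Alveolar type 1 markers summed to 13450 RPKM in the lung-labelled library and to between 14.9 and 503 RPKM in the others. Endothelial markers summed to 1988 RPKM and between 22.7 and 420 RPKM, and alveolar type 2 markers to 40412 RPKM and between 3.84 and 211 RPKM. Fibroblast markers summed to 3568 RPKM in the lung-labelled library and 4012 RPKM in the kidney-labelled one. The part of any of these cells in the beta composition was not tested.

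**Figure D3:**
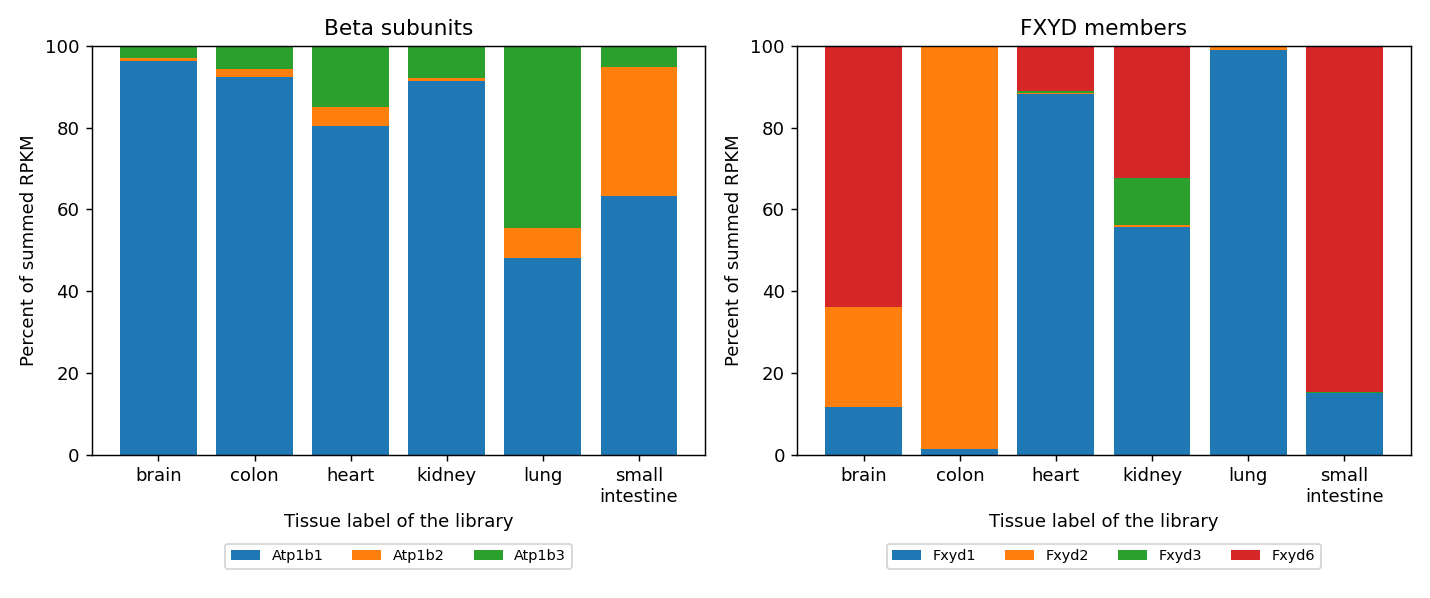
Percent of the summed RPKM of the 3 beta subunits (left) and of the 4 FXYD members (right) carried by each gene, for the library of each tissue label. *Atp1b1* carries between 80.4% and 96.4% of the beta density in 4 libraries, while the FXYD bars are led by *Fxyd6* (labelled brain and small intestine), *Fxyd2* (labelled colon) or *Fxyd1* (labelled heart, kidney and lung).

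*Fxyd1* encodes phospholemman, the pump regulator of heart and skeletal muscle that protein kinases phosphorylate. It had 311 RPKM (interval 289 to 335) in the heart-labelled library, 205 RPKM (186 to 225) in the lung-labelled one, 70.7 RPKM (59.8 to 83.1) in the kidney-labelled one, 30.6 RPKM (21.6 to 41.9) in the colon-labelled one, 25.1 RPKM (18.8 to 32.9) in the small-intestine-labelled one and 17.0 RPKM (12.6 to 22.5) in the brain-labelled one. The library labelled heart was 1.52-fold (1.35 to 1.72) above the lung-labelled one and 18.3-fold (13.7 to 24.9) above the brain-labelled one. The libraries labelled colon and small intestine did not differ beyond counting error, and neither did those labelled small intestine and brain. With median-of-ratios size factors, the heart-labelled library had 357 RPKM and the lung-labelled one 151 RPKM, which takes *Fxyd1* past 2-fold over the next library. Cardiomyocyte markers summed to 28055 RPKM in the heart-labelled library and 277 RPKM in the lung-labelled one. Endothelial markers summed to 420 RPKM and 1988 RPKM in these libraries, and fibroblast markers to 1402 RPKM and 3568 RPKM, and the part of these cells in the density of *Fxyd1* was not tested.

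*Fxyd2* encodes the gamma subunit, known as the FXYD protein of the kidney tubule. It had 2008 RPKM (1915 to 2105), from 1737 reads, in the colon-labelled library and 35.8 RPKM (28.0 to 45.0), from 73 reads, in the brain-labelled one. It had 1.35 RPKM in the lung-labelled library and 1.27 RPKM in the heart-labelled one, from 2 reads each, and 0.687 RPKM, from 1 read, in the kidney-labelled one. It was not listed in the small-intestine-labelled library, where 3 reads would give 2.04 RPKM. *Fxyd2* was thus 56.2-fold (44.4 to 72.0) higher in the colon-labelled library than in the brain-labelled one, at least 983-fold higher than in the small-intestine-labelled one, and at or under 2 reads in the other 3. In the colon-labelled library it was at rank 53 of 12325 mRNAs with reads, and at rank 10 of the 200 with reads and a CDS of up to 300 nt.

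Other tubule genes also had reads in the library with the second level of *Fxyd2*. The library labelled brain held 1.78% of the *Fxyd2* density of the colon-labelled library, and for the tubule markers *Calb1*, *Slc34a1*, *Cldn16*, *Slc12a3*, *Lrp2*, *Umod*, *Slc12a1* and *Miox* it held between 1.69% and 4.89%. *Umod*, made in the thick ascending limb, had 449 RPKM there from 9187 reads, and *Lrp2*, the endocytic receptor of the proximal tubule, 68.1 RPKM from 10125 reads. *Aqp3* stood at 36.6%, and *Aqp2*, *Hsd11b2* and *Pvalb* had no reads in the brain-labelled library. The lung-labelled library, with 2 reads on *Fxyd2*, held more *Lrp2* (112 RPKM from 12126 reads) and less *Umod* (56.7 RPKM from 844 reads). The part of tubule reads in the *Fxyd2* density of the brain-labelled library was not tested. In the colon-labelled library, markers of the proximal tubule summed to 5281 RPKM and those of the distal convoluted tubule to 3325 RPKM, the highest of the 6 libraries for both.

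*Fxyd3*, a regulator known from stomach and colon epithelium, was the member with the fewest reads. It had 14.5 RPKM (9.70 to 20.8), from 29 reads, in the kidney-labelled library, 1.39 RPKM from 3 reads in the heart-labelled one and 0.495 RPKM from 1 read in the small-intestine-labelled one. It was not listed in the libraries labelled brain, colon and lung, where 3 reads would give 1.07, 2.52 and 1.47 RPKM. The library labelled kidney was 10.4-fold (3.23 to 53.5) above the heart-labelled one and, against libraries without reads, at least 13.6-fold above the brain-labelled one, at least 9.85-fold above the lung-labelled one and at least 5.74-fold above the colon-labelled one. Goblet cell markers summed to 12585 RPKM in the kidney-labelled library and 3993 RPKM in the brain-labelled one, and colonocyte markers to 924 RPKM and 64.2 RPKM. Of the general epithelial markers, *Krt8* was lower in the kidney-labelled library than in the brain-labelled one (1585 and 3707 RPKM), while *Epcam* (1175 and 1130 RPKM) and *Cdh1* (624 and 373 RPKM) were higher. The part of any of these cells in the reads of *Fxyd3* was not tested.

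*Fxyd6* encodes phosphohippolin, a regulator known from brain and inner ear. It had 141 RPKM (126 to 158) in the small-intestine-labelled library, 93.7 RPKM (83.1 to 105) in the brain-labelled one, 41.2 RPKM (33.0 to 50.7) in the kidney-labelled one and 39.0 RPKM (31.4 to 47.9) in the heart-labelled one. It had 0.459 RPKM, from 1 read, in the lung-labelled library and was listed at 0 in the colon-labelled one, where 3 reads would give 2.36 RPKM. The library labelled small intestine was 1.51-fold (1.28 to 1.78) above the brain-labelled one and at least 59.9-fold above the colon-labelled one, while those labelled kidney and heart did not differ beyond counting error (1.06-fold, 0.777 to 1.43). *Fxyd6* was thus not detectable in the library in which its chromosomal neighbour *Fxyd2* was highest. Conversely, *Fxyd2* had no reads in the library in which *Fxyd6* was highest. Both had reads in the brain-labelled library, with 93.7 RPKM of *Fxyd6* (281 reads) and 35.8 RPKM of *Fxyd2* (73 reads). The 2 libraries with most *Fxyd6* differed widely in neuronal markers, at 3338 RPKM (labelled small intestine) and 21.8 RPKM (labelled brain), and the part of neurons in its density was not tested.

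The leading FXYD member differed between libraries, while *Atp1b1* led the beta density in all 6. Their summed density was 2039 RPKM in the colon-labelled library, 353 RPKM in the heart-labelled one, 207 RPKM in the lung-labelled one, 167 RPKM in the small-intestine-labelled one, 146 RPKM in the brain-labelled one and 127 RPKM in the kidney-labelled one. *Fxyd2* carried 98.5% (97.9 to 98.9) of it in the colon-labelled library, and *Fxyd1* 99.1% (97.3 to 99.7) in the lung-labelled one and 88.2% (85.8 to 90.3) in the heart-labelled one. *Fxyd6* carried 84.7% (80.5 to 88.1) in the small-intestine-labelled library and 64.0% (58.9 to 68.7) in the brain-labelled one, where *Fxyd2* added 24.4% (20.0 to 29.4). The library labelled kidney was the most mixed, with 55.7% (49.6 to 61.5) of *Fxyd1*, 32.4% (27.1 to 38.2) of *Fxyd6* and 11.4% (8.05 to 15.9) of *Fxyd3*.

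Other FXYD genes changed the order of regulators in 2 libraries. With *Fxyd4*, *Fxyd5* and *Fxyd7* in the sum, *Fxyd7* carried 59.8% (56.6 to 63.0) in the small-intestine-labelled library and *Fxyd6* 32.5% (29.5 to 35.6). In the lung-labelled library, *Fxyd5* carried 50.1% (47.3 to 53.0) and *Fxyd1* 49.4% (46.6 to 52.3), so neither led beyond counting error. *Fxyd2* in the colon-labelled library (97.7%), *Fxyd1* in the heart-labelled one (87.0%) and the kidney-labelled one (43.8%), and *Fxyd6* in the brain-labelled one (57.8%) still led.

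The density of regulators relative to beta subunits differed widely between libraries. The ratio of summed FXYD to summed beta density was 0.419 (0.399 to 0.440) in the colon-labelled library, 0.324 (0.302 to 0.349) in the heart-labelled one, 0.153 (0.139 to 0.168) in the lung-labelled one, 0.0363 (0.0322 to 0.0410) in the kidney-labelled one, 0.0353 (0.0319 to 0.0390) in the brain-labelled one and 0.0190 (0.0171 to 0.0211) in the small-intestine-labelled one. The first 3 libraries lay apart from the other 3, and those labelled kidney and brain did not differ beyond counting error. By reads in place of RPKM, which leaves out CDS length, the heart-labelled library (0.0998) stood above the colon-labelled one (0.0894). The high ratio had different components, since in the colon-labelled library the beta density was high as well (4862 RPKM), while in the heart-labelled one it was the lowest of the 6 (1088 RPKM). Single pairs there gave 0.447 (0.426 to 0.470) for *Fxyd2* to *Atp1b1* in the colon-labelled library and 0.356 (0.329 to 0.385) for *Fxyd1* to *Atp1b1* in the heart-labelled one. With all FXYD and all ATP1B rows in the sums, the ratio was 0.307 in the lung-labelled library, near that of the heart-labelled one (0.329). It was 0.0495 in the small-intestine-labelled library, 0.0462 in the kidney-labelled one and 0.0391 in the brain-labelled one. The place of the small-intestine-labelled library as the lowest thus depended on the genes summed. These are ratios of ribosome density, and protein was not measured.

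**Figure D4:**
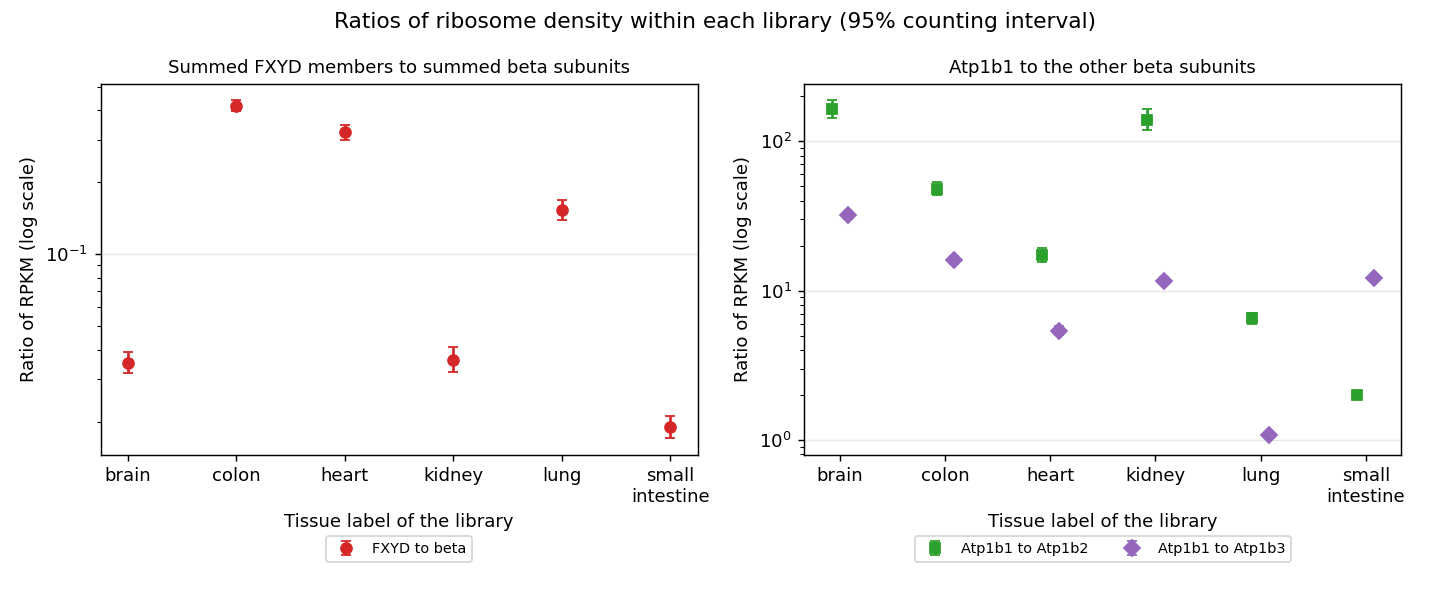
Ratios of RPKM within each library (log scale) with 95% intervals of counting error, by tissue label. Left, the summed FXYD members to the summed beta subunits, from 0.0190 (labelled small intestine) to 0.419 (labelled colon), and right, *Atp1b1* to *Atp1b2* (squares) and to *Atp1b3* (diamonds), lowest at 2.01 and 1.08 in the libraries labelled small intestine and lung.

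Per length, the short FXYD mRNAs should be read beside mRNAs of like length. The median RPKM of mRNAs with a CDS of up to 300 nt was above that of all mRNAs with reads in every library, for example 49.9 against 9.02 RPKM in the colon-labelled library and 18.0 against 6.16 RPKM in the small-intestine-labelled one. Among such short mRNAs, *Fxyd1* was at rank 47 of 268 in the heart-labelled library and 39 of 183 in the lung-labelled one, and *Fxyd6* at rank 54 of 272 in the small-intestine-labelled one. *Fxyd3* was at rank 160 of 245 in the kidney-labelled library, below the median of 33.3 RPKM. The FXYD shares compare short CDSs with each other, while the FXYD to beta ratio sets short CDSs against long ones in all 6 libraries.

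Other genes of the pump family were read in the same way. Of the 11 on the list, 9 were highest in 1 library by at least 2-fold, 5 of them in the small-intestine-labelled library, beside 46.1% of all tested mRNAs in any library and 14.9% in that one. *Fxyd7*, a regulator known from neurons, had 261 RPKM there and at most 0.509 RPKM, from 1 read, elsewhere. *Nkain1*, *Nkain2* and *Nkain3*, which encode membrane proteins that interact with the pump, and *Atp1b4* had between 2.05 and 4.42 RPKM there. These 4 values rest on between 10 and 21 reads, with at most 2 reads in any other library. *Nkain4* was high in 2 libraries, with 429 RPKM in the lung-labelled one and 334 RPKM in the small-intestine-labelled one, and was not past the 2-fold rule. *Fxyd5*, or dysadherin, had 208 RPKM in the lung-labelled library and between 4.40 and 26.8 RPKM elsewhere. *Atp12a*, the colonic proton pump that exchanges potassium, had 58.1 RPKM in the kidney-labelled library and at most 0.866 RPKM elsewhere. *Fxyd4*, a regulator known from collecting duct and distal colon, had 8.22 RPKM in the colon-labelled library, 7.55 RPKM in the kidney-labelled one and no reads in the other 4.

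The subunits of the gastric proton pump were found apart from each other. *Atp4a*, its catalytic subunit, had 10.9 RPKM, from 153 reads, in the colon-labelled library, and *Atp4b*, its beta subunit, had 6.45 RPKM, from 44 reads, in the lung-labelled one. *Atp4b* had no reads in the colon-labelled library, and *Atp4a* none in the lung-labelled one.

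**Figure D5:**
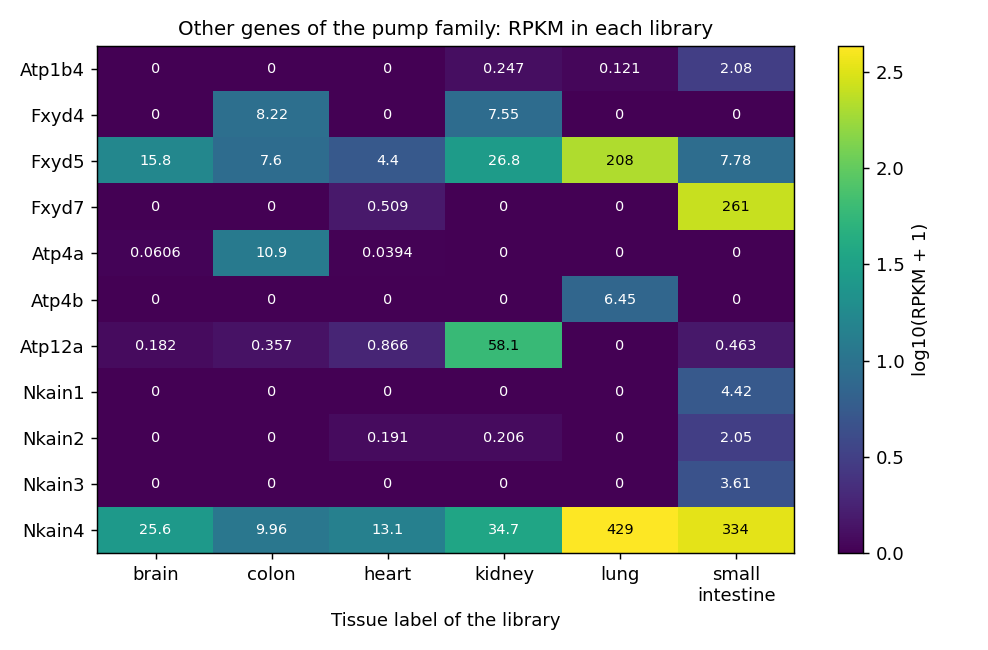
RPKM of 11 other genes of the pump family (rows) in the 6 libraries (columns, by tissue label), with the colour giving log10(RPKM + 1) and the number in each cell the RPKM. *Fxyd7* reaches 261 RPKM in the small-intestine-labelled library only, *Fxyd5* is highest in the lung-labelled one (208 RPKM), *Atp12a* in the kidney-labelled one (58.1 RPKM), and *Nkain4* is high in those labelled lung and small intestine.

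Of 22 transporters and channels that use or shape the sodium gradient, 18 were highest in 1 library by at least 2-fold, beside the 46.1% of all tested mRNAs given above. The library labelled colon held 8 of them, beside 5.89% of all tested mRNAs highest there by that fold. Among the 8 were *Slc34a1*, the phosphate cotransporter of the proximal tubule (1361 RPKM), and *Kcnj16*, a basolateral potassium channel (1161 RPKM). *Slc12a1*, the cotransporter of the thick ascending limb (724 RPKM), was another. These stood in the library with the highest *Fxyd2*. The library labelled small intestine held 5 (beside 14.9% of tested mRNAs), led by the glutamate transporter *Slc1a2* (1393 RPKM). It was the library with the highest *Atp1b1*, *Atp1b2* and *Fxyd6*. The library labelled brain held 3 (beside 5.55% of tested mRNAs), led by the glucose cotransporter *Slc5a1* (657 RPKM). It had the highest share of *Atp1b1* among beta subunits.

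The libraries with the highest FXYD to beta ratio after the colon-labelled one held 1 each, beside 5.57% (labelled heart) and 10.8% (labelled lung) of tested mRNAs. In the heart-labelled library it was *Slc8a1*, the sodium-calcium exchanger (356 RPKM), and in the lung-labelled one *Scnn1g*, a subunit of the epithelial sodium channel (307 RPKM). None was highest by at least 2-fold in the kidney-labelled library, beside 3.41% of tested mRNAs. There *Slc12a2*, the cotransporter of secretory epithelia, had 476 RPKM against 378 RPKM in the small-intestine-labelled library. Members of this list were picked by function, and with 22 genes the counts are a description.

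The mRNAs with the profile most like each member, by Pearson's r of log2(RPKM + 1) over the 6 libraries among 10579 other mRNAs with at least 10 RPKM in some library, were named by a rule. For *Fxyd2* they were *Cltrn*, *Slc22a19* and *Slc5a10* (each r = 0.998), which had 525, 314 and 94.0 RPKM in the colon-labelled library. For *Atp1b2* they were *Adam11* and *Kcnh7* (both r = 0.997) and *Ppp1r9b* (r = 0.996), all highest in the small-intestine-labelled library. For *Atp1b3* they were *Prdm2* and *Daam2* (both r = 0.996) and *Ints3* (r = 0.991), all highest in the lung-labelled library. The 6 points of every mRNA come from the same libraries, and the numbers of mRNAs with r over 0.99 were 9 for *Fxyd2*, 7 for *Atp1b2*, 3 for *Atp1b3* and 0 for the other members.

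For those other members the leading r was lower. The mRNAs were *Polr2h*, *Rspo3* and *Gde1* for *Atp1b1* (r from 0.977 to 0.985), *Rpl36*, *E2f4* and *Pdzd11* for *Fxyd1* (0.981 to 0.985), *Gpr15lg*, *H3c1* and *Cela1* for *Fxyd3* (0.987 to 0.989), and *Gtf2a2*, *Polr3k* and *Cyrib* for *Fxyd6* (0.985 to 0.988). Among the 21 pairs of members, Pearson's r was farthest from 0 for *Atp1b1* and *Fxyd1* (r = -0.927, rho = -0.771). *Fxyd1* was highest in the libraries labelled heart and lung, where *Atp1b1* was lowest. By Spearman's rho, *Atp1b2* and *Atp1b3* were as far from 0 (rho = 0.771, r = 0.598). These correlations are descriptions without a test.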

How the data were processed

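For each of 6 Ribo-seq libraries, a table of RPKM values by mRNA was deposited by the authors. Their methods, written for macrophage libraries and taken to hold here, describe Cutadapt trimming, removal of reads under 15 nt, STAR alignment to the longest CDS of each gene (Ensembl GRCm39 release 107) without multi-mapped reads or more than 2 mismatches, and random-forest P-sites. Tool versions are not given in the sources used here.

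Reads were recovered as RPKM times CDS length over its smallest step, and 100% of values came out whole (within 0.001). mRNAs with no reads or no row were set at the RPKM of 3 reads in ratios, and for the range over libraries so were those under 3 reads. Intervals are exact Poisson (levels), exact conditional binomial (ratios of 2 values) or by the delta method (shares and summed ratios), at 95%. In 2000 simulated draws, the intervals of shares, summed ratios and ratios held the true value in 95.25%, 95.3% and 95.95% of draws. Coverage was not simulated for the Poisson intervals, nor for values that rest on a few reads. No test between libraries was possible with 1 per label. Gene names, coordinates and CDSs came from GENCODE M39 on GRCm39, which named 18424 of 18437 gene IDs.

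The members and lists were chosen with earlier results of these data known. The text names the members, the 11 pump and 22 sodium transport genes (of the latter, those with the highest RPKM), 19 marker lists, and the 3 mRNAs most like each member. The catalytic alpha subunits were not analysed here, and 1 further marker list is not reported here. Alternatives covered scaling, length weighting, the genes summed, fold, depth and likeness. Scripts ran in Python 3.11.15 with pandas 2.3.3, numpy 2.4.6, matplotlib 3.10.9 and scipy 1.17.1.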

Additional observations from a re-analysis of the deposited data

How the results depend on the processing

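With 1 library per label, no replicate could be left out, and the intervals cover counting error alone. Depth limits *Fxyd3* (29 reads at most) and the low values of *Fxyd2* and *Fxyd6*, which rest on at most 2 reads. Other scalings multiplied every RPKM of a library by between 0.737 (median-of-ratios size factors, labelled lung) and 1.40 (TPM, labelled kidney), and 88 of the members' rescaled values stayed within their counting interval while 60 moved beyond it. The highest library changed under none of these scalings except for *Atp1b3* with size factors. The 3 members past 2-fold stayed so at 3-fold, in all scalings, after thinning to the lowest total and with the lower interval bound, and with size factors 1 member (*Fxyd1*) was added in the library labelled heart. Taking reads in place of RPKM, *Atp1b1* carried 96.7% (labelled brain), 92.1% (kidney), 81.7% (heart), 92.9% (colon), 64.5% (small intestine) and 50.1% (lung) of the beta reads, *Fxyd6* 69.6% of the FXYD reads in the library labelled brain, and *Fxyd2* 97.9% in that labelled colon. The ratio of FXYD to beta reads was 0.0998 (labelled heart), 0.0894 (colon), 0.0482 (lung), 0.0111 (kidney), 0.0101 (brain) and 0.00596 (small intestine), lower by construction because FXYD CDSs are shorter, and it placed the library labelled heart above that labelled colon. With all FXYD rows in the sum, the share of the member that led was 57.8% (*Fxyd6*, labelled brain), 97.7% (*Fxyd2*, colon), 43.8% (*Fxyd1*, kidney), 49.4% (*Fxyd1*, lung) and 32.5% (*Fxyd6*, small intestine), and with all FXYD and ATP1B rows the ratio was 0.0391 (labelled brain), 0.0462 (kidney), 0.307 (lung) and 0.0495 (small intestine). The share of tested mRNAs past 2-fold in any library was 44.1% with a highest RPKM of at least 10 and 44.6% with no filter. Of the 3 mRNAs most like each member, 1 or 2 were kept with a pseudocount of 0.1 and 0 or 1 with Spearman's rho.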
